A study of Bos indicus with 12 samples.

Results

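Among the genes of bovine blood RNA, 10 with a symbol were followed across 2 Indian zebu breeds, the dairy breed Gir and Shweta Kapila: KCNK1, ATP2B2, ABHD15, CAPN3, DMBT1, PTPRO, TTC21B, HAP1, CRYBA1 and COL11A1. They had been picked for a low p between the breeds in these same cows, so their breed difference is described here and not tested. All 10 were found by identifier among 26229 genes of the table, and all 10 passed the filter on low counts that left 15420 genes. The 12 animals (Bos indicus) were cows in the second or the third lactation, 3 in each of 4 groups: Gir of high yield, Gir of low yield, Shweta Kapila of high yield and Shweta Kapila of low yield. Yield classes were set within each breed from lactation records, the milk records are not analysed here, and no treatment is named. Each library came from its own cow.

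The members do not form a pathway. KCNK1 and ATP2B2 move ions, the first as a background potassium channel and the second as a plasma membrane calcium pump, which in the mouse mammary gland exports calcium into milk. ABHD15 and CAPN3 are a hydrolase-fold protein and a protease, DMBT1 and PTPRO act outside the cell or at its surface, TTC21B and HAP1 serve transport along microtubules, and CRYBA1 and COL11A1 are structural proteins of lens and cartilage. In bulk blood RNA, fewer cells of a type and less RNA per cell cannot be told apart. No sequence tables were used, and neither the counting program nor its strand setting is named in the labels.

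Total counts ran from 14.2 M to 27.2 M per library. T cell, B cell and monocyte markers were present in every library, as the label of mononuclear cells has it. Neutrophil markers were also abundant, at a summed 1282 to 4238 CPM (counts scaled to library size, with the trimmed mean of M-values, TMM), and the extraction kit named in the labels is one for whole blood. The erythroid markers summed to 11.8 to 537.6 CPM, with ALAS2, EPB42 and HEMGN past the filter and AHSP and SLC4A1 not. Shweta Kapila libraries were the more spread: the share of counts on 37 unnamed short identifiers ran from 4.54% to 13.1% there and from 6.20% to 8.70% in Gir. On the first principal component (37.7% of the variance) the 3 libraries over 22 M, Shweta Kapila high 3 (−45.6), low 1 (−104) and low 2 (−63.7), lay apart from the other 3 of their breed (at positive scores up to 62.4). Without these 3 libraries, 6 Gir and 3 Shweta Kapila cows were left, with low 3 as the only low-yielding Shweta Kapila cow. On these cows 6 members separated the breeds, TTC21B and HAP1 being added to the 4 named next, and 9.94% of all genes did so.

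Between the breeds KCNK1, ATP2B2 and ABHD15 were lower in Gir, and the other 7 members were higher in Gir. The breeds separated without overlap in 4 of the 10, namely KCNK1, CAPN3, DMBT1 and PTPRO, where 0.61% of all 15420 genes did so. Of all genes 0.272% lay wholly higher and 0.337% wholly lower in Gir. Since the members were picked on this contrast, nothing is read from that count. In 6 members at least 1 cow lay inside the range of the other breed, so the name "genes that separate the breeds" holds cow by cow for 4 of them. edgeR's quasi-likelihood test called 0 genes between the breeds (0%, lowest adjusted p = 0.0896 over all genes), 1476 genes (9.57%; 3.78% higher and 5.79% lower in Gir) had an unadjusted p under 0.05 and DESeq2 called 195. The count over all genes depended on 1 cow, with 447 genes called by edgeR without Shweta Kapila low 3.

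**Figure D1:**
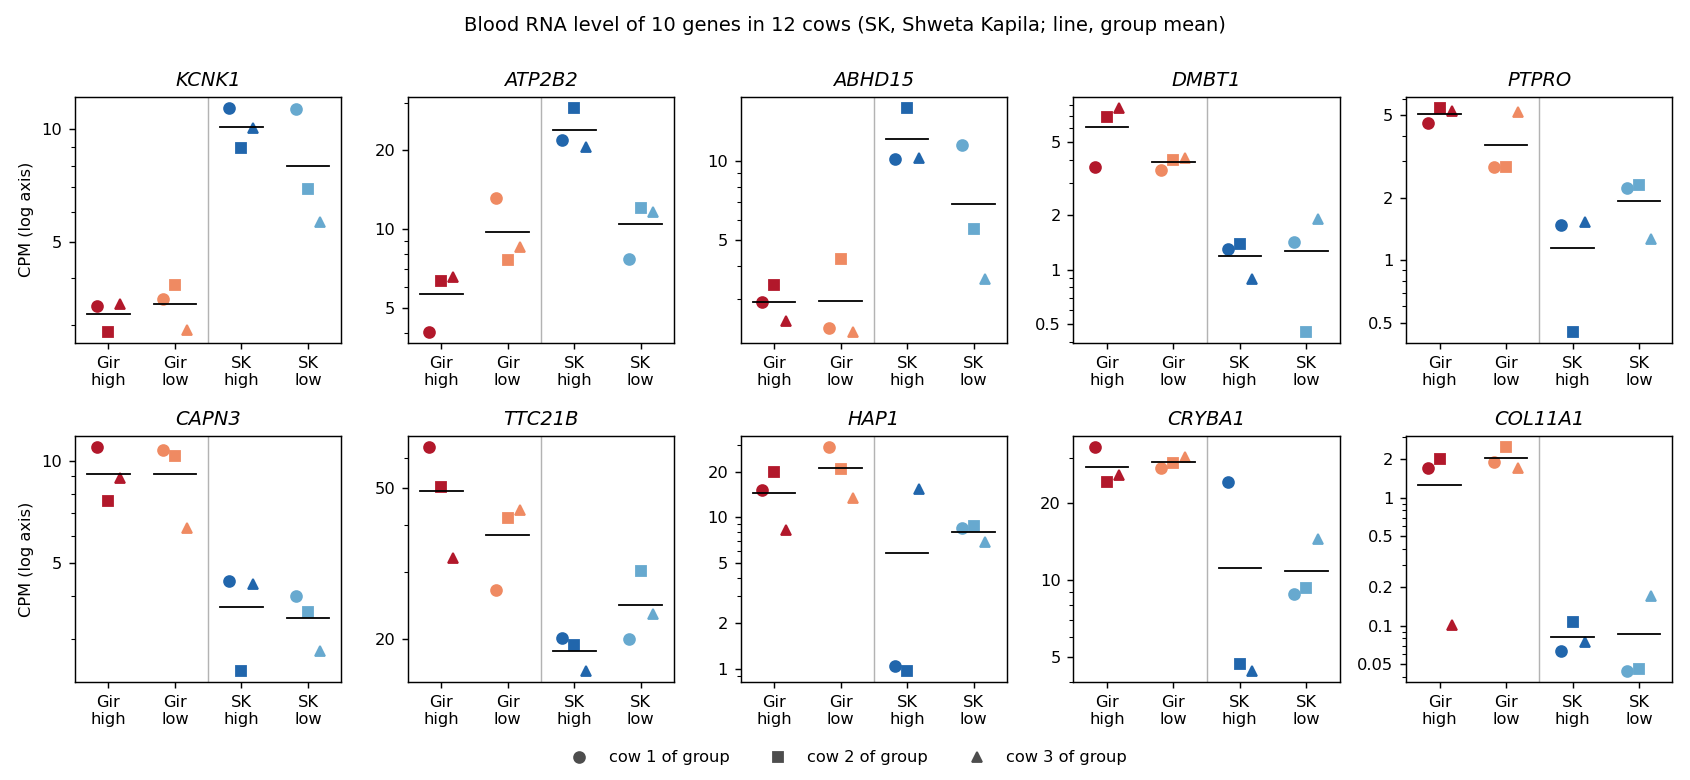
CPM of each gene (log axis) in 12 cows, by breed and yield class (SK, Shweta Kapila); each point is a cow and each line the mean of 3. KCNK1, CAPN3, DMBT1 and PTPRO show no overlap between breeds, whereas Gir high cow 3 sits with Shweta Kapila for COL11A1 (0.103 CPM) and Shweta Kapila high cow 3 sits with Gir for HAP1 (15.3 CPM).

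The rule named no threshold. By p among named genes the members held ranks 2 (KCNK1), 3 (COL11A1), 4 (DMBT1), 5 (CAPN3), 7 (ABHD15), 10 (ATP2B2), 11 (TTC21B) and 15 (PTPRO). CRYBA1 stood at rank 108 and HAP1 at rank 819, so neither is among the named genes of lowest p in this fit. Named genes in the gaps, which are not members, were ADCY3, P4HA2 and TRIOBP at ranks 12 to 14, all wholly lower in Gir, and 4 whose breeds overlapped. These 4 were SAXO1 at rank 1 (log2 fold change −2.15 ± 0.33, Gir over Shweta Kapila, ± SE), S1PR5 at rank 6 (−1.40 ± 0.26), SIGLEC1 at rank 8 (2.05 ± 0.40) and PRF1 at rank 9 (−1.28 ± 0.25).

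KCNK1 (identifier 109553938) encodes a channel of the K2P family, which sets the resting potential of the cell membrane. In Gir it stood at 3.37, 2.88 and 3.41 CPM in the high-yielding and 3.51, 3.83 and 2.91 CPM in the low-yielding cows. In Shweta Kapila it stood at 11.4, 8.91 and 10.1 CPM in the high-yielding and 11.3, 6.95 and 5.67 CPM in the low-yielding cows. Gir cows lay within 1.33 times of each other, and the lowest Shweta Kapila cow, low 3, was still 1.48 times above the highest Gir cow. The log2 fold change was −1.44 ± 0.22 (SE), that is 2.71-fold lower in Gir, and it was −1.65 ± 0.32 among high-yielding and −1.22 ± 0.31 among low-yielding cows. Of the 6 other K2P channels that passed the filter, 2 were higher and 4 lower in Gir, and none was called (0 of 6). Their median log2 fold change was −0.02 against −0.04 over all genes. The most abundant of these were KCNK6 (67.2 ± 12.8 against 68.0 ± 5.91 CPM, mean ± SD, n = 6 each) and KCNK5 (15.8 ± 5.59 against 17.0 ± 6.65 CPM). Since edgeR called 0 of all 15420 genes between the breeds (0%), the members included, no gene list could hold a call. The counts of calls given for this and the later lists therefore do not set relatives apart from members.

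ATP2B2 (identifier 109576121) was the member whose breed difference was closest to 0 in 1 yield class. Gir cows stood at 4.05, 6.31 and 6.57 CPM with high yield and at 13.04, 7.59 and 8.50 CPM with low yield. Shweta Kapila cows stood at 21.8, 28.9 and 20.5 CPM with high yield and at 7.64, 12.0 and 11.6 CPM with low yield. The 3 high-yielding Shweta Kapila cows were thus above the other 9 cows, and the low-yielding cows of both breeds overlapped. Among high-yielding cows the log2 fold change between breeds was −2.07 ± 0.32 (4.20-fold lower in Gir), and among low-yielding cows it was −0.10 ± 0.31 (1.07-fold lower).

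Yield was not used to pick the members, and ATP2B2 lay in opposite order with it in the breeds. In Gir every high-yielding cow was below every low-yielding cow (log2 fold change −0.78 ± 0.32, high over low), and in Shweta Kapila every high-yielding cow was above every low-yielding cow (1.19 ± 0.31). In edgeR's quasi-likelihood test the difference between these yield effects was −1.97 ± 0.44 with an unadjusted p of 0.000741, rank 8 of 15420 genes, and an adjusted p of 0.955, so it was not called. DESeq2 called it (adjusted p = 0.0328). Over all 20 alternative settings the difference lay between −2.12 and −1.70 and its adjusted p between 0.0328 and 1.00. The T cell and natural killer (NK) marker lists were also highest in the high-yielding Shweta Kapila cows. Summed over 7 T cell markers, high-yielding Shweta Kapila cows held 2599 to 3631 CPM, low-yielding ones 1543 to 2324 CPM, high-yielding Gir 1524 to 1755 CPM and low-yielding Gir 1434 to 2177 CPM. Of the 7 markers 6 were lower in Gir, and all 7 were detected. For the NK list, of which PRF1 and NKG7 were in the table, both lower in Gir, the sums were 353.7 to 772.2 CPM in high-yielding and 168.9 to 207.9 CPM in low-yielding Shweta Kapila cows, and 80.2 to 240.2 CPM over Gir. Their part in the ATP2B2 result was not tested.

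Of 13 other calcium pumps and exchangers that passed the filter, 4 were higher and 9 lower in Gir, with a median log2 fold change of −0.14 and 0 calls. The sum of the whole list, ATP2B2 included, was 930 to 985 CPM in Gir and 1043 to 1213 CPM in Shweta Kapila, without overlap. The sums of the other family lists overlapped between the breeds. This was seen after the fact and was not tested. The endoplasmic reticulum pump ATP2A3 stood at 386 ± 40.6 CPM in Gir and 426 ± 157 CPM in Shweta Kapila, and the plasma membrane pump ATP2B1 at 223 ± 32.5 and 281 ± 113 CPM (mean ± SD, n = 6 each). ATP2B4, chosen after its values were seen, was the other pump with an unadjusted p under 0.05, at 77.3 ± 15.3 against 139.9 ± 54.9 CPM (log2 fold change −0.86 ± 0.29, adjusted p = 0.38).

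**Figure D2:**
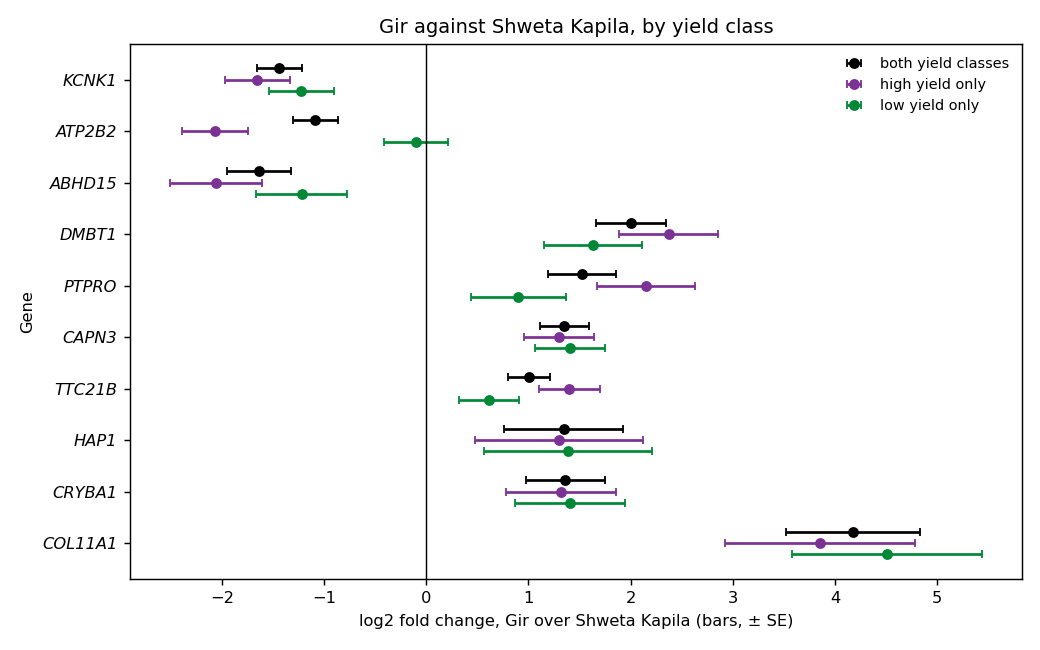
Log2 fold change of each gene, Gir over Shweta Kapila, over both yield classes (black), among high-yielding cows (purple, 3 against 3) and among low-yielding cows (green, 3 against 3), with bars of 1 SE. All 10 genes keep their direction in both classes, and ATP2B2 falls from −2.07 with high yield to −0.10 with low yield.

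ABHD15 (identifier 109574378) is a protein of the alpha/beta hydrolase family that, in mouse adipocytes, binds the phosphodiesterase PDE3B and takes part in the insulin control of lipolysis. In Gir it stood at 2.91, 3.39 and 2.47 CPM in the high-yielding and 2.32, 4.24 and 2.25 CPM in the low-yielding cows. In Shweta Kapila it stood at 10.2, 15.9 and 10.3 CPM in the high-yielding and 11.5, 5.51 and 3.56 CPM in the low-yielding cows. Shweta Kapila low 3 fell below Gir low 2, and leaving out either of these cows leaves no overlap. The log2 fold change was −1.64 ± 0.31 (3.11-fold lower in Gir), with −2.05 ± 0.45 for high and −1.22 ± 0.44 for low yield. Among 19 other ABHD genes 7 were higher and 12 lower in Gir (median −0.05, 0 calls), led in abundance by ABHD12 (146 ± 39.7 against 136 ± 51.7 CPM). In edgeR's test 1 of the 19 had an unadjusted p under 0.05, against 9.57% of all genes. This was ABHD17C (log2 fold change −1.02 ± 0.35), lower in Gir like ABHD15. Of 10 other lipolysis genes 7 were higher and 3 lower in Gir (median 0.24, 0 calls). In edgeR's test 3 of the 10 had an unadjusted p under 0.05, against 9.57% of all genes. These were MGLL, INSR and IRS2, named after their values were seen, and all were higher in Gir, opposite to ABHD15. PDE3B itself stood at 69.2 ± 7.76 CPM in Gir and 77.3 ± 30.9 CPM in Shweta Kapila.

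CAPN3 (identifier 109564987) is a calcium-dependent cysteine protease best known from skeletal muscle. Gir cows stood at 11.0, 7.62 and 8.86 CPM with high and 10.8, 10.3 and 6.34 CPM with low yield. Shweta Kapila cows stood at 4.44, 2.42 and 4.34 CPM with high and 4.00, 3.60 and 2.76 CPM with low yield. The ranges did not meet, and the lowest Gir cow was 1.43 times above the highest Shweta Kapila cow. The difference was nearly the same size in both yield classes, at a log2 fold change of 1.30 ± 0.34 with high and 1.41 ± 0.34 with low yield (1.35 ± 0.24 over both). The abundant members of the calpain system lay close together in both breeds: the small regulatory subunit CAPNS1 stood at 476 ± 52.7 CPM in Gir and 507 ± 114 CPM in Shweta Kapila, and the inhibitor CAST at 377 ± 25.0 and 355 ± 125 CPM. Of 10 other genes of the system 8 were higher and 2 lower in Gir, with a median log2 fold change of 0.11 and 0 calls. In edgeR's test 1 of the 10 had an unadjusted p under 0.05, against 9.57% of all genes. This was CAPN14 (log2 fold change 1.58 ± 0.66), higher in Gir like CAPN3.

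DMBT1 (identifier 109553125) is a secreted protein with scavenger receptor cysteine-rich (SRCR) domains that binds bacteria at mucosal surfaces. In Gir it stood at 3.64, 6.93 and 7.75 CPM in high-yielding and 3.53, 4.01 and 4.13 CPM in low-yielding cows. In Shweta Kapila it stood at 1.30, 1.38 and 0.893 CPM in high-yielding and 1.42, 0.456 and 1.91 CPM in low-yielding cows. Gir cows were all above Shweta Kapila cows, with the nearest pair 1.85 times apart, the widest such gap among the members. The log2 fold change was 2.00 ± 0.34 (4.00-fold higher in Gir), at 2.37 ± 0.48 among high-yielding and 1.63 ± 0.48 among low-yielding cows. The gene overlaps an annotated long non-coding RNA, LOC109553126, at 0.599 ± 0.383 CPM in Gir and 0.485 ± 0.147 CPM in Shweta Kapila. Of 8 other SRCR genes past the filter 6 were higher and 2 lower in Gir (median log2 fold change 0.12, 0 calls). In edgeR's test 3 of the 8 had an unadjusted p under 0.05, against 9.57% of all genes. SSC4D (log2 fold change 2.38 ± 0.84) and LOXL4 (1.48 ± 0.54) were higher in Gir, like DMBT1, and CD6 was lower. SSC4D and LOXL4 were named after their values were seen. The T cell surface proteins CD5 and CD6 were the most abundant of the 8. CD5 stood at 182 ± 35.1 against 195 ± 87.9 CPM and CD6 at 113 ± 27.6 against 228 ± 117 CPM (log2 fold change −0.91 ± 0.22, adjusted p = 0.278 in edgeR).

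PTPRO (identifier 109559619), a receptor-type tyrosine phosphatase known from kidney podocytes, was 2.88-fold higher in Gir. The Gir cows stood at 4.61, 5.44 and 5.25 CPM with high and 2.81, 2.83 and 5.21 CPM with low yield. The Shweta Kapila cows stood at 1.48, 0.453 and 1.53 CPM with high and 2.22, 2.32 and 1.27 CPM with low yield. The breeds did not overlap, but the nearest cows, Gir low 1 and Shweta Kapila low 2, were only 1.21 times apart. Accordingly the log2 fold change was 2.15 ± 0.48 among high-yielding and 0.90 ± 0.46 among low-yielding cows, and the difference of 1.25 ± 0.66 between them was not called (edgeR adjusted p = 0.955, unadjusted p = 0.0807). Monocyte markers were also higher: 4 of 4 measured were higher in Gir than in Shweta Kapila, and their sum was 316.5 to 485.6 CPM in high-yielding Gir, 168.6 to 284.8 CPM in low-yielding Gir and 100.1 to 268 CPM in Shweta Kapila. Neutrophil markers lay likewise (6 of 6 higher in Gir; 2641 to 4238 CPM in high-yielding Gir, 2028 to 2625 CPM in low-yielding Gir and 1282 to 4041 CPM in Shweta Kapila), and 5 of 5 B cell and 5 of 5 platelet markers were higher in Gir. The part of these lists in the PTPRO values was not tested. Other receptor-type phosphatases did not share a direction, with 6 of 13 higher and 7 lower in Gir (median −0.16, 0 calls). In edgeR's test 2 of the 13 had an unadjusted p under 0.05, against 9.57% of all genes. These were PTPRE (log2 fold change −0.78 ± 0.19) and PTPRF (−0.97 ± 0.30), both lower in Gir, opposite to PTPRO. The pan-leukocyte PTPRC stood at 1596 ± 217 CPM in Gir and 1933 ± 779 CPM in Shweta Kapila.

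TTC21B (identifier 109566937), a subunit of the intraflagellar transport complex that carries cargo back from the tip of the cilium, was 2.01-fold higher in Gir. It stood at 64.2, 50.5 and 32.8 CPM in high-yielding and 26.9, 41.9 and 43.9 CPM in low-yielding Gir. It stood at 20.1, 19.3 and 16.5 CPM in high-yielding and 20.1, 30.3 and 23.3 CPM in low-yielding Shweta Kapila. Breeds were apart among high-yielding cows and overlapped among low-yielding cows, where Shweta Kapila low 2 was above Gir low 1. The log2 fold change was 1.40 ± 0.30 with high yield, 0.61 ± 0.29 with low yield and 1.01 ± 0.21 over both. Among 23 other intraflagellar transport genes 8 were higher and 15 lower in Gir (median −0.08, 0 calls). WDR19, a subunit of the same complex, stood at 43.4 ± 22.6 CPM in Gir and 43.1 ± 11.7 CPM in Shweta Kapila. In edgeR's test 2 of the 23 had an unadjusted p under 0.05, against 9.57% of all genes. These were IFT81 (log2 fold change −1.15 ± 0.36) and TULP3 (−0.57 ± 0.24), both lower in Gir, opposite to TTC21B.

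HAP1 (identifier 109574386), a partner of huntingtin that links cargo to microtubule motors in neurons, had the widest spread of the members in Shweta Kapila. High-yielding cows of this breed stood at 1.04, 0.967 and 15.3 CPM, and low-yielding ones at 8.54, 8.72 and 6.86 CPM. Gir cows stood at 15.1, 19.9 and 8.18 CPM with high and 29.0, 20.8 and 13.4 CPM with low yield. Shweta Kapila cows differed by up to 15.8 times among themselves, and 3 of the 6, high 3, low 1 and low 2, lay inside the Gir range. The log2 fold change of 1.34 ± 0.58 became 2.62 without Shweta Kapila high 3. It became 2.75 without the 3 libraries over 22 M counts, of which high 3 is the largest, and was 2.20 with log2 total count as a covariate. Its huntingtin-linked partners showed 6 genes higher and 5 lower in Gir of 11 (median 0.03, 0 calls), led by the dynactin subunit DCTN1 (151 ± 17.97 against 131 ± 22.05 CPM) and the kinesin KIF5B (96.2 ± 18.1 against 147 ± 78.6 CPM).

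CRYBA1 (identifier 109573660), a beta-crystallin of the eye lens, was even across Gir and uneven across Shweta Kapila. Gir cows stood at 32.9, 24.1 and 25.6 CPM with high and 27.4, 28.6 and 30.2 CPM with low yield, within 1.37 times of each other. Shweta Kapila cows stood at 24.2, 4.70 and 4.42 CPM with high and 8.79, 9.28 and 14.4 CPM with low yield, up to 5.47 times apart. Shweta Kapila high 1 met the Gir range at its lower end, by the margin of 24.2 to 24.1 CPM, and the other 5 cows were below it. The log2 fold change was 1.36 ± 0.38, with 1.32 ± 0.54 for high and 1.41 ± 0.54 for low yield, and it became 2.01 without Shweta Kapila high 1. Of 10 other crystallins past the filter 5 were higher and 5 lower in Gir (median −0.12, 0 calls), with CRYBG1 (170 ± 24.9 against 154 ± 59.0 CPM) and CRYZL1 (21.7 ± 4.89 against 29.2 ± 6.86 CPM) the most abundant. In edgeR's test 1 of the 10 had an unadjusted p under 0.05, against 9.57% of all genes. This was CRYBG2 (log2 fold change −0.92 ± 0.24), lower in Gir, opposite to CRYBA1.

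COL11A1 (identifier 109556003), the alpha 1 chain of the fibrillar collagen XI of cartilage, was near the limit of counting in Shweta Kapila blood. Gir cows stood at 1.70, 2.00 and 0.103 CPM with high and 1.90, 2.48 and 1.72 CPM with low yield. Shweta Kapila cows stood at 0.0633, 0.107 and 0.0747 CPM with high and 0.0445, 0.0460 and 0.171 CPM with low yield. Each Shweta Kapila library held 1 to 3 counts, 10 in all, and Gir libraries held 179.2 counts in all, of which 1.99 came from Gir high 3. The gene passed the filter on low counts through its Gir libraries alone. Gir high 3 lay within the Shweta Kapila range, and 5 of 6 Gir cows lay above it. As a description, and scaled by library size, the ratio of summed counts was 20.1 (exact 95% interval 10.7 to 42.6, counting error only). That interval leaves out the spread between cows and the choice of the gene on this contrast, so nothing is read from it. The fitted log2 fold change of 4.18 ± 0.66 rests on these few counts. The prior count of 2 used for log2 CPM did not enter it, and its dependence on any other prior was not tested. Other fibrillar collagens were not called (0 of 3, 2 higher and 1 lower in Gir); COL11A2, the partner chain, stood at 18.5 ± 10.2 CPM in Gir and 20.04 ± 15.1 CPM in Shweta Kapila, and 7 of the 11 listed collagens did not pass the filter.

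By yield class, 7 of 10 members separated the breeds among high-yielding cows, where 12.8% of all genes did (6.01% higher and 6.78% lower in Gir), and 7 of 10 among low-yielding cows, where 9.41% did (4.99% higher and 4.42% lower). KCNK1, CAPN3, DMBT1 and PTPRO separated in both classes (4 of 10, against 1.29% of all genes). ABHD15, ATP2B2 and TTC21B separated only with high yield, and HAP1, CRYBA1 and COL11A1 only with low yield. All 10 members had the same sign in both classes, as did 56.8% of all genes. These counts use the contrast on which the members were picked and describe them only.

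Yield itself, which did not enter the choice, gave no call among the members. For the mean of both breeds edgeR's quasi-likelihood test called 0 of 15420 genes (0%), with 637 (4.13%) at an unadjusted p under 0.05, and DESeq2 called 4. None of the 10 members had an unadjusted p under 0.05, their log2 fold changes ran from −0.51 for HAP1 to 0.41 for ABHD15, and the median size was 0.17 against 0.22 over all genes. Within Gir (0%, 291 genes or 1.89% unadjusted, DESeq2 1) and within Shweta Kapila (0%, 1077 genes or 6.98% unadjusted, DESeq2 61), ATP2B2 was the 1 member with an unadjusted p under 0.05 in edgeR's test (0.0284 and 0.00238, adjusted p = 1.00 and 0.575). It was also the 1 member without overlap between yield classes in either breed, where 10.1% of all genes in Gir (5.09% higher and 5.01% lower with high yield) and 7.2% in Shweta Kapila (3.51% higher and 3.69% lower) had none. For the breed by yield difference 587 genes (3.81%) had an unadjusted p under 0.05, edgeR called 0 (0%) and DESeq2 9. Among the members that was again ATP2B2 alone. The Shweta Kapila estimates for ABHD15 (0.82 ± 0.43) and PTPRO (−0.76 ± 0.47) were the next in size after it, and neither passed.

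**Figure D3:**
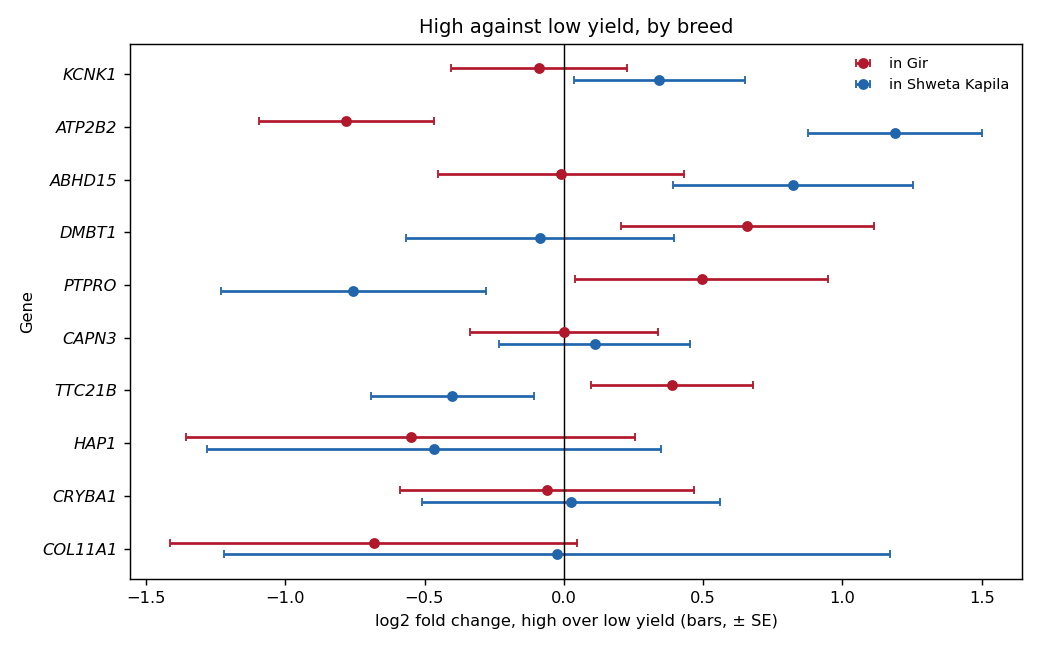
Log2 fold change of each gene between high-yielding and low-yielding cows, in Gir (red) and in Shweta Kapila (blue), 3 cows against 3, with bars of 1 SE. ATP2B2 lies at −0.78 in Gir and 1.19 in Shweta Kapila, and the bars of the breeds overlap for 7 genes, all but ATP2B2, PTPRO and TTC21B.

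CRYBA1 and ABHD15 stand near each other on a chromosome of the assembly NIAB-ARS_B.indTharparkar_mat_pri_1.0, with 6 annotated genes between them, and HAP1 lies 730 genes farther along it than ABHD15. The other 7 members each have a chromosome to themselves, so the 10 genes fall on 8. CRYBA1 was higher and ABHD15 lower in Gir, and the 2 tested genes between them were not called, as no gene was in edgeR's test. NUFIP2, beside CRYBA1, stood at 119 ± 9.59 CPM in Gir and 200 ± 103 CPM in Shweta Kapila (log2 fold change −0.75 ± 0.34, adjusted p = 0.507), and TAOK1, a kinase gene beside ABHD15, at 61.1 ± 8.54 and 73.1 ± 29.9 CPM (−0.26 ± 0.26, adjusted p = 0.754; mean ± SD, n = 6 each, edgeR).

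TP53I13 overlaps ABHD15 in the annotation, and reads shared by the pair could be split in ways that are not known. It stood at 9.16, 11.0 and 2.02 CPM in high-yielding and 0.766, 0.9496 and 2.06 CPM in low-yielding Shweta Kapila, and between 0.774 and 2.11 CPM in Gir. High values of TP53I13 were seen in 2 of the 6 Shweta Kapila cows, high 1 and high 2. ABHD15 was above every Gir cow in 5 of the 6. The part of shared reads in either gene was not tested. Around all 10 members, the nearest tested gene on each side gave 20 genes. Of these, NUFIP2 and SCN1A had an unadjusted p under 0.05 between the breeds in edgeR's test, where 9.57% of all genes did. The 20 held 0 calls, as did all genes (0%). None of the 20 separated the breeds, where 0.61% of all genes did. Their median absolute log2 fold change was 0.14, where all genes had 0.24.

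**Figure D4:**
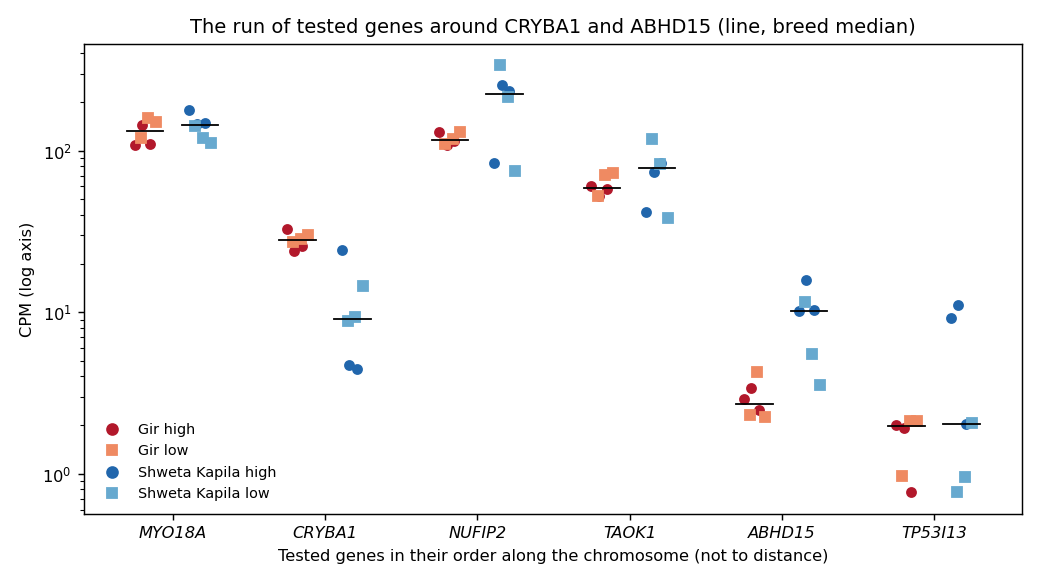
CPM (log axis) of 6 tested genes in their order along the chromosome, evenly spaced and not to distance, in Gir (left of each pair) and Shweta Kapila (right); points are cows and lines breed medians. CRYBA1 is lower and ABHD15 higher in most Shweta Kapila cows, while MYO18A, NUFIP2, TAOK1 and TP53I13 overlap between breeds.

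Likeness to other named genes was measured by Pearson r of log2 CPM over the 12 cows, which the breed difference itself raises. KCNK1 was most like P4HA2, a collagen prolyl hydroxylase subunit (r = 0.947; 3.24 ± 0.378 against 7.14 ± 2.38 CPM, Gir first). ABHD15 was most like SAXO1, a microtubule protein of cilia and sperm tails (r = 0.942), PTPRO like RNF150 (r = 0.951) and CRYBA1 like SNUPN, an import adaptor of small nuclear ribonucleoproteins (r = 0.961). For the other 6 the closest genes were TNFAIP8L1 (ATP2B2, r = 0.922), LARS2 (DMBT1, r = 0.920), RGS2 (CAPN3, r = 0.898), RRP8 (TTC21B, r = 0.883), ADGB (HAP1, r = 0.903) and TDRKH (COL11A1, r = 0.893).

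With the breed means taken out, the closest genes were others in every case. PTPRO was then most like SDCBP (r = 0.966), DMBT1 like GPX2 (r = 0.945), CRYBA1 like TIMM44 (r = 0.930), ABHD15 like YPEL2 (r = 0.922), CAPN3 like HSPA6 (r = 0.919) and HAP1 like RPGRIP1L (r = 0.916). COL11A1 was most like CELSR1 (r = 0.898), TTC21B like TMEM81 (r = 0.898), KCNK1 like the T cell adhesion molecule CD2 (r = 0.895) and ATP2B2 like WDR31 (r = 0.894). Of the 45 pairs of members, KCNK1 and ABHD15 had the highest r within breeds, at 0.758 over 12 cows with 0.829 over the 6 Shweta Kapila cows and 0.350 over the 6 Gir cows. ATP2B2 and PTPRO had the lowest, at −0.679 over 12 cows. These are the extremes among many pairs that share libraries, and they are given as descriptions.

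**Figure D5:**
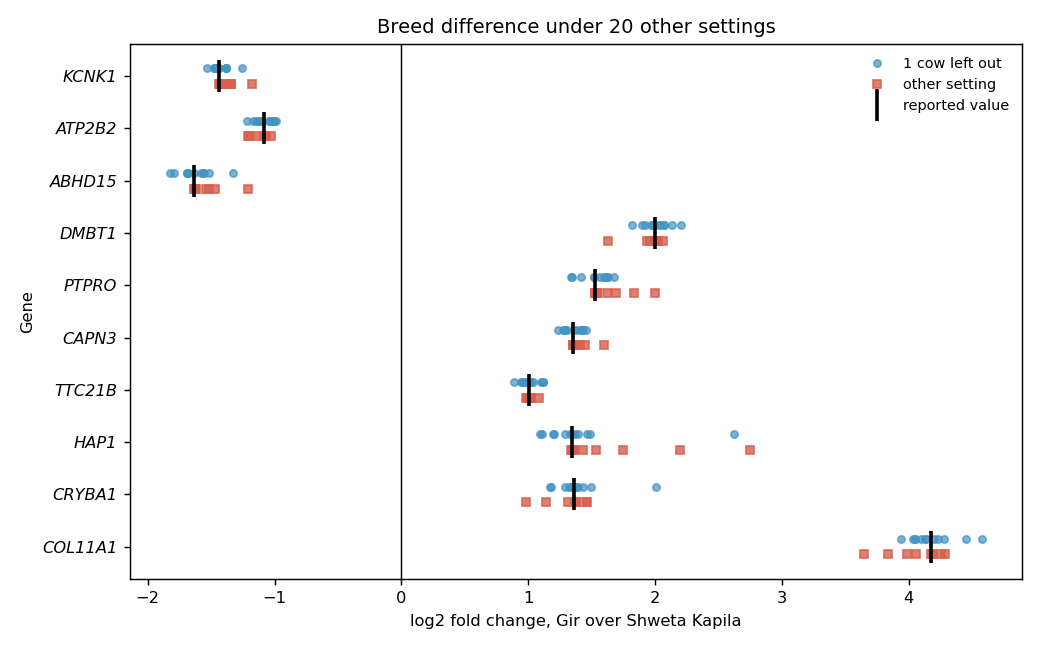
Log2 fold change of each gene, Gir over Shweta Kapila, as reported (black line), with each of 12 cows left out (blue) and under 8 other settings (red). No point crosses 0, and HAP1 (1.10 to 2.75) and CRYBA1 (0.98 to 2.01) move the most relative to their size. The genes were picked on this contrast, so the kept direction is a description only.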

How the data were processed

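The authors deposited expected counts of each gene for 12 libraries, not scaled by the authors as far as column totals show; 57.0% are not whole numbers (tolerance 1e-06). Libraries were stranded and depleted of ribosomal RNA, per the labels' protocols. The submitters' processing notes name Trimmomatic and FastQC, without versions. Aligner, counter, strand setting, build and annotation: not given in the sources used here. Symbols came by identifier from a RefSeq table of the assembly NIAB-ARS_B.indTharparkar_mat_pri_1.0 (22754 of 26229 matched), used for names and gene order only.

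Expected counts were rounded and fitted in R 4.3.3 with edgeR 4.0.16: filterByExpr (minimum count 10, minimum total 15), TMM, a mean per group over 12 libraries, a robust quasi-likelihood test, 2-sided, Benjamini-Hochberg adjusted over 15420 genes, threshold 0.05. On total counts, before TMM scaling, 10 reads equal 0.368 to 0.704 CPM across libraries, so values near or below this carry wide counting error. Each edgeR p-value tests a difference between group means against the spread between cows, which is estimated in part from all genes. Alternatives were DESeq2 1.42.0, other scaling, no filter, a replicate block, covariates and left-out libraries. The fit was checked on simulated data. Log2 CPM used a prior count of 2. Genes named beside the members are the most alike by r, the nearest tested neighbours, overlapping genes, and the most abundant of each of 11 lists. Some list genes with an unadjusted p under 0.05 in edgeR's test were named after their values were seen. The members and lists were chosen with earlier results of these data known.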

Additional observations from a re-analysis of the deposited data

Results flagged for a closer look

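COL11A1 was flagged because Gir high 3, at 0.103 CPM, lay far from the other 5 Gir cows, which ran from 1.70 to 2.48 CPM. Its gap to the nearest of them took 0.67 of the whole Gir range, above the critical value of 0.625 for 6 samples. This was the 1 such case in 20 sets of cows, made of 10 genes in 2 breeds, and chance gives about 1 in 20.

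ATP2B2 was flagged because high-yielding cows were all below low-yielding cows in Gir and all above them in Shweta Kapila. The difference between the yield effects was −1.97 ± 0.44 (log2, ± SE) and was not called over all genes in edgeR's quasi-likelihood test (adjusted p = 0.955).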

How the results depend on the processing

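The breed difference of all 10 genes kept its direction under 20 alternatives. Since the genes were picked on this contrast in these same cows, a kept direction was likely from the outset, and nothing is read from it. The number of genes called between breeds, 0 in edgeR, was 195 in DESeq2, 53 with log2 total count and 24 with the share of short identifiers as a covariate, 31 without the 3 libraries over 22 M, 3 without a filter, and 0 to 447 with a cow left out, the highest without Shweta Kapila low 3. The number of members without overlap between breeds, 4 of 10 where 0.61% of all genes had none, lay between 4 and 6. It was highest without the 3 libraries over 22 M, where 9.94% of all genes had no overlap. CRYBA1 joined the 4 with RLE size factors or total counts. With CPM unchanged, leaving out cows cannot lower this count, so those settings are no check on it.

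Replicate numbers do not pair the cows (r of deviations above 0.1 in 3 of 18 same-numbered pairs, from −0.56 to 0.34; 3 of 12 libraries were closest to their own number). With a replicate block 1 gene was called between breeds, and the interactions of HAP1 (0.23) and CRYBA1 (0.13) turned positive.

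Yield calls for both breeds were 4 in DESeq2, and for Gir 1 in DESeq2. For Shweta Kapila they were 61 in DESeq2, 1 with log2 total count and 0 to 2 with a cow left out. Leaving out the 3 libraries over 22 M kept low 3 as the only low-yielding Shweta Kapila cow, so no calls are given for that setting. Interaction calls were 9 in DESeq2 and 0 to 1 with a cow left out.

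Some uncalled values changed sign, and the cause was not tested. Without the 3 libraries, Shweta Kapila low 3 was the only low-yielding cow of its breed. The yield and interaction values of that setting therefore rest on this cow alone for its group. Yield turned for TTC21B (0.0032 without a filter, 0.0712 without the 3 libraries) and PTPRO (0.17 with the share covariate, 0.0243 without the 3 libraries). The interaction turned for HAP1 (0.11 with log2 total count, 2.24 without the 3 libraries), CRYBA1 (0.65 with the share and 0.18 with log2 total count) and COL11A1 (0.17 with the share, 0.24 without the 3 libraries). With a cow left out, yield ran from −0.0475 to 0.17 for CAPN3, −0.12 to 0.11 for TTC21B, −0.28 to 0.0641 for PTPRO, −0.65 to 0.18 for CRYBA1 and −0.61 to 0.0440 for COL11A1, and the interaction from −0.35 to 0.0272 for CAPN3, −0.58 to 2.47 for HAP1 (the highest without Shweta Kapila high 3) and −0.47 to 1.18 for CRYBA1. Few counts limit COL11A1 in Shweta Kapila.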
